A study of Bos taurus with 36 samples.

Results

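The blood of 10 pregnant heifers was set against the liver of the fetuses they carried, which took 18 of the 36 RNA-seq libraries of the series (10 from maternal blood and 8 from fetal liver, chosen by their tissue label). All fetuses were male and were collected on Day 42 of gestation. Each heifer had received a Day 7 embryo, either when its own cycle was at Day 7 (ET_D7, the synchronous group, 5 animals) or at Day 9 (ET_D9, the asynchronous group, 5 animals), and no other treatment is given for either tissue. The fetuses of the ET_D7 animals weighed 1.253 to 1.37 g and those of the ET_D9 animals 1.396 to 1.69 g. Every ET_D9 fetus was heavier than every ET_D7 fetus, so transfer group and fetal weight cannot be told apart. Blood was drawn into RNA-stabilising tubes at the time the fetuses were collected, and the blood of a dam and the liver of its fetus carry the same animal number. The study collected both to relate the maternal transcriptome to fetal growth, and the comparison of these 2 tissues asks which blood-forming, immune and hepatic transcripts each of them holds.

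Blood libraries were made with a SMARTer Stranded RNA kit and liver libraries with a TruSeq stranded mRNA kit. The kit, the tissue and the generation (adult or fetus) therefore cannot be told apart, and only very large differences and ranks within a library are described. Total counts ranged from 26602415 to 40812354 in blood and from 18231089 to 34454772 in liver, and mitochondrially encoded genes took 2.14% to 3.29% and 16.3% to 36.8% of them. The liver libraries of 2 ET_D7 fetuses differed by less than the sampling noise (the median chi-square over 13013 genes was 0.243 of its expectation, against 8.80 or more for every other pair of livers), and they were counted as 1 sample, which left 7 livers (4 ET_D7, 3 ET_D9). The liver libraries were less even than those of blood: 333 genes held at most 2 counts in some livers and at least 300 in all others, against 2 such genes in blood. By a wider limit (at most 2 counts in 1 library, 100 or more in another), liver held 1487 genes and blood 231. In the 3 ET_D9 livers, 652 genes carried the same counts of 1, 0 and 1, whereas the heart, the libraries labelled gonads and the maternal blood of these animals held 10, 2 and 11 genes with that set of counts. Of 877 genes with at most 1 count in every ET_D9 liver and 100 or more in an ET_D7 liver, 618 had that set, and 39 genes were low in every ET_D7 liver in the same way. This was noticed after the values were seen. Without the 333 genes, the calls given below changed from 3695 to 3490 for liver against blood and from 1635 to 1309 between transfer groups in liver. The wider set of 1487 genes was not left out in this way.

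The fetal liver of a ruminant at this age is a blood-forming organ as well as a gland. Red cell precursors mature there in contact with macrophages and lie between hepatoblasts, the precursors of hepatocytes, which already secrete the plasma proteins of the fetus. Adult blood holds mature leukocytes, platelets and red cells that have lost their nucleus, and its young red cells (reticulocytes) still carry some globin mRNA. In bulk RNA, fewer cells of a type and less RNA per cell cannot be told apart.

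The tissue labels were checked against 4 marker genes, ranked by count within each library (percentile 100 is the gene with most counts among the 24234 genes with a count in any of these libraries). AFP, alpha-fetoprotein, the main plasma protein of the early fetus, held 91916 to 352689 counts in every liver and stood above all but a few genes there, at percentile 99.9 or higher, against 0 counts in all blood libraries but 1, which held 4. CD3E, a chain of the T cell receptor complex, stood at percentile 97.5 ± 0.52 in blood (SD, n = 10) and at 26.0 ± 9.06 in liver (SD, n = 7), with 7618 to 13957 counts in blood and 0 to 18 in liver. GATA1, the master transcription factor of red cell and megakaryocyte formation, stood at 98.8 ± 0.16 in liver and at 66.3 ± 6.73 in blood. S100A8, a calcium-binding protein of neutrophils and monocytes, was the closest of the 4, at 80.4 ± 3.94 in blood and 64.5 ± 3.77 in liver. For each of the 4 genes the ranks of the 2 tissues did not overlap, and the exact two-sided permutation test over the 17 libraries gave p = 5.14e-05 (adjusted over the 4 genes, 5.14e-05), the smallest value that 19448 arrangements allow. Full separation fixes p at this value. By counts scaled to library size, 24.2% of all genes lay higher in every blood library than in every liver, and 19.8% the other way. Such separation is therefore not particular to these genes. XIST, the transcript of the inactive X chromosome in females, gave 403 to 776 CPM in the dams and 0 to 1.37 CPM in the male livers, so that the highest liver value was 0.340% of the lowest blood value (CPM is the count relative to the TMM-scaled library size).

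**Figure D1:**
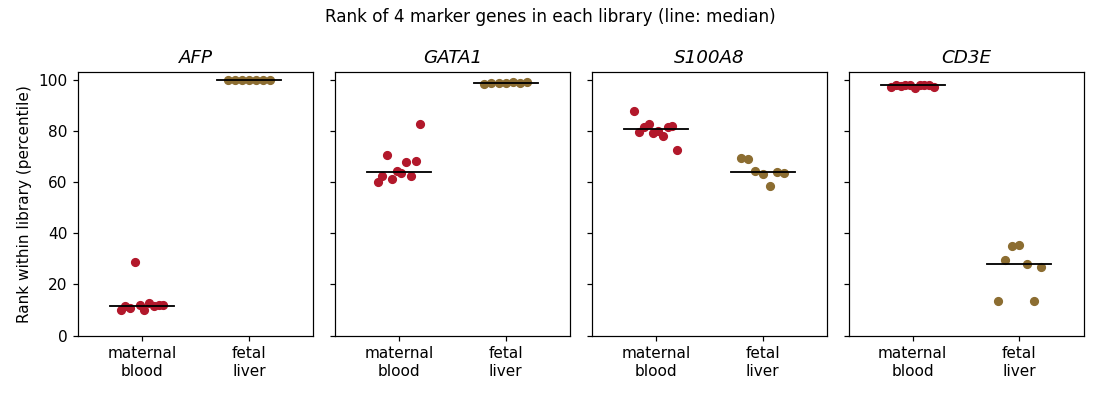
Rank of AFP, GATA1, S100A8 and CD3E within each library, in percentiles of the count (y axis) for maternal blood (10 libraries) and fetal liver (7), 1 point per library with the group median as a line. The tissues do not overlap for any of the 4 genes, and S100A8 shows the smallest gap, 80.4 against 64.5 on average. By CPM, 24.2% of all genes lay higher in every blood library and 19.8% in every liver.

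Over all 24234 genes tested, 1922 (7.93%) were at least 16-fold higher in blood and 3695 (15.2%) at least 16-fold higher in liver, both at a Benjamini-Hochberg adjusted p under 0.05 in edgeR's quasi-likelihood test. By ranks within libraries, which need no scaling between kits, 695 genes (2.87%) stood at least 40 percentile points higher in blood without overlap and 777 (3.21%) in liver. Of these, 686 and 776 were also past the 16-fold limit. The median log2 fold change (liver minus blood) of all genes was 0.24, and other scalings moved it to between −0.10 and 0.69, so smaller differences than that have no fixed direction here. The genes of 8 leukocyte lists, 4 red cell lists, 5 hepatocyte lists and a few others are described against this background. Of 99 leukocyte genes tested, 55 were called higher in blood and 11 in liver. Of 50 erythroid genes, 1 was called higher in blood and 31 in liver, and of 82 hepatocyte genes 0 and 66. With the ET_D9 libraries left out, the leukocyte calls were 50 and 12, the erythroid calls 1 and 30 and the hepatocyte calls 1 and 65.

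**Figure D2:**
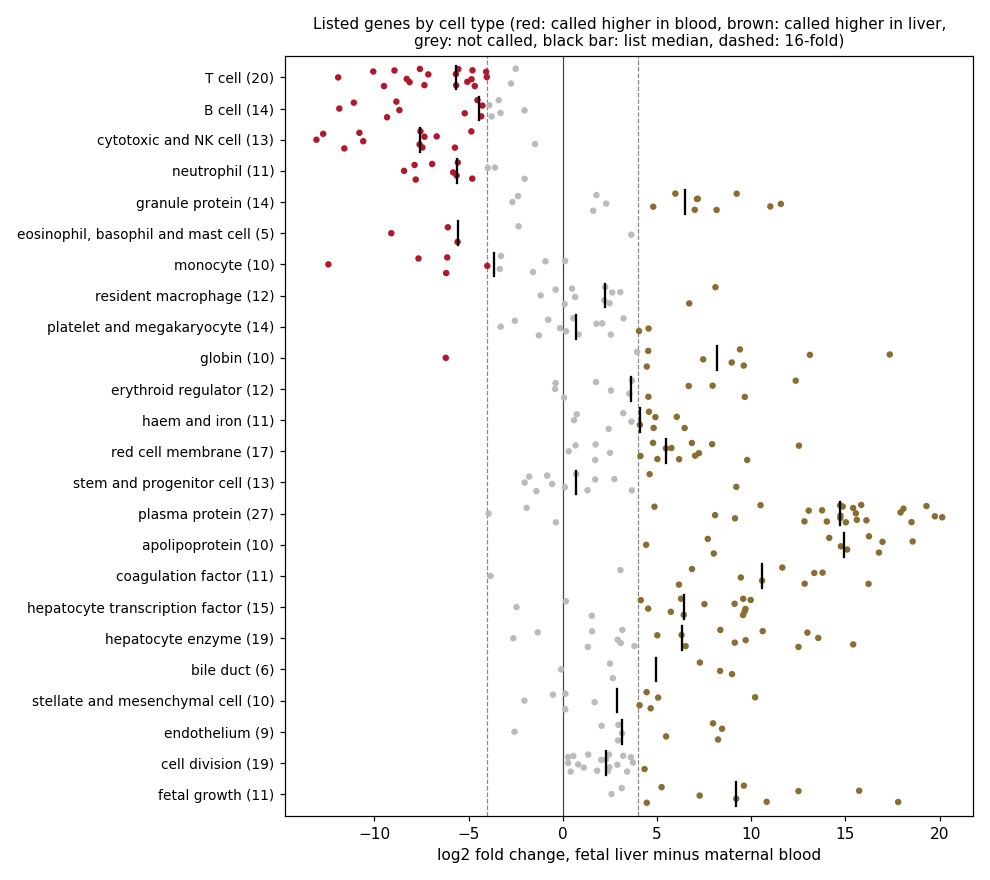
Log2 fold change (fetal liver minus maternal blood) of each listed gene (points) by list, with the number of genes tested in parentheses, the list median as a black bar and the 16-fold limits as dashed lines. Lymphocyte and neutrophil genes lie left of 0, plasma protein, apolipoprotein and red cell genes right of it, and granule protein genes (median 6.49) lie apart from the neutrophil genes (median −5.63).

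Genes of lymphocytes lay with blood. All 20 T cell genes passed the adjusted p in favour of blood, as did 33.2% of all genes, 18 were at least 16-fold higher there, and the list median was −5.66 on the log2 scale. CD2, an adhesion receptor of T and NK cells, had 115 ± 23.2 CPM in blood (SD, n = 10), and 4 counts in 1 liver were all that the 7 livers held (log2 fold change −11.92, SE 0.42, adjusted p = 5.1e-15, edgeR). CD3D, CD3G and CD5 reached 10, 22 and 35 counts in the liver with most of them. LAT and TRAT1, which were singled out after their values were seen, were the T cell genes left below 16-fold, with 7.63 to 18.9 CPM and 8.16 to 23.3 CPM in liver against 76.8 to 114 CPM and 58.1 to 95.9 CPM in blood. No T cell gene overlapped between the tissues, whereas 24.2% of all genes lay higher in every blood library than in every liver.

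The B cell list followed the same order, with 14 of 14 genes past the adjusted p in favour of blood and 9 past 16-fold (median −4.42). MS4A1, the B cell antigen CD20, had 633 to 933 CPM in blood (median 702) and 0 to 0.623 CPM in liver (median 0). CD79B, the signalling chain of the B cell receptor, had 123 ± 20.1 CPM in blood (SD, n = 10) and at most 4 counts in a liver. JCHAIN, which joins IgA and IgM units in plasma cells, was more evenly spread, at 110 to 559 CPM in blood and 6.32 to 12.1 CPM in liver. FCER2, PAX5 and CR2 had log2 fold changes of −9.32, −8.83 and −8.67.

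Cytotoxic and NK cell genes had the lowest median of the leukocyte lists, −7.55, with 12 of 13 genes past 16-fold. PRF1 (perforin, the pore-forming protein of killer cells) held 805 to 2058 counts in each blood library and 0 counts in all 7 livers, which makes it at least 1763-fold higher in blood (against a floor of 3 counts over the livers). EOMES, a transcription factor of killer cells, was also at 0 in every liver and at least 632-fold higher in blood. TBX21, the related factor T-bet, had 114 ± 21.0 CPM in blood (SD, n = 10), and the livers held 2 counts in all. NCR1 and KLRD1, receptors of NK cells, reached 2 counts at most in a liver, and KLRB1 reached 8. Summed over the list, killer cell genes made 284 to 487 CPM in blood and 4.41 to 9.78 CPM in liver.

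Of 11 neutrophil genes, 8 were at least 16-fold higher in blood. CXCR2, the interleukin-8 receptor, had 167 ± 68.7 CPM in blood (SD, n = 10) against 0.747 ± 0.334 CPM in liver (SD, n = 7). MMP9, gelatinase B of neutrophil granules, held 292 to 1036 counts in a blood library and at most 2 in a liver. PADI4, which citrullinates histones, had a log2 fold change of −5.63 (SE 0.47, adjusted p = 1.7e-09, edgeR). The calcium-binding proteins S100A12, S100A9 and S100A8 were the 3 members below 16-fold. For S100A8 the values were 21.4 to 72.3 CPM in blood (median 40.7) and 6.89 to 13.8 CPM in liver (median 10.1), a log2 fold change of −2.02 (SE 0.21, adjusted p = 4.2e-08, edgeR).

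The granule protein list, which holds antimicrobial peptides and proteases of neutrophil granules, differed from the neutrophil list in its counts. Of 14 tested, 9 were at least 16-fold higher in liver, none in blood, and the list median was 6.49. CAMP, a cathelicidin (an antimicrobial peptide precursor), had 11.9 to 35.3 CPM in liver (median 18.1), and 1 blood library held 2 counts while the other 9 held 0 (log2 fold change 11.01, SE 0.54, adjusted p = 5.7e-13, edgeR). PRTN3, proteinase 3, held 36 to 77 counts in each liver and 0 in every blood library, at least 302-fold higher in liver. The bovine cathelicidins CATHL1, CATHL3 and CATHL5 were 7.17, 8.16 and 7.12 higher on the log2 scale, with at most 6 counts in any blood library. CATHL6 was at 0 in blood too, but its liver counts were uneven: the 4 ET_D7 livers held 166 to 816 and the 3 ET_D9 livers 1, 0 and 1. BPI and MPO (bactericidal protein and myeloperoxidase), singled out after their values were seen, were the 2 members past the adjusted p in favour of blood, with log2 fold changes of −2.67 (SE 0.54) and −2.37 (SE 0.56). All 14 granule genes were also higher in liver than in the fetal heart and the libraries labelled gonads, by the limits given for organs below. Summed, neutrophil genes made 2786 to 4326 CPM in blood and 88.1 to 168 CPM in liver, granule protein genes 22.9 to 87.2 CPM in blood and 116 to 276 CPM in liver.

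**Figure D3:**
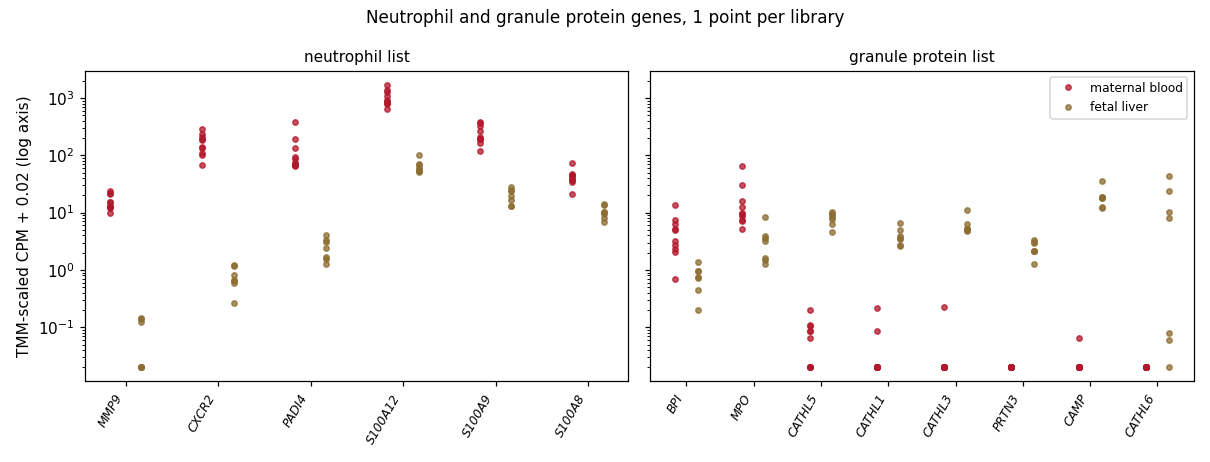
TMM-scaled CPM plus 0.02 (log axis) of 6 genes of the neutrophil list (left) and 8 of the granule protein list (right), those named in the text, in maternal blood (red, 10 libraries) and fetal liver (brown, 7), 1 point per library. The neutrophil genes shown are higher in every blood library than in any liver, whereas CAMP and PRTN3 have 2 counts or fewer in any blood library and are present in every liver.

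Of 10 monocyte genes, 5 were called higher in blood and none in liver. LYZ, lysozyme, had 1122 to 1997 CPM in blood and 0 to 1.19 CPM in liver (median 0.120; log2 fold change −12.44, SE 0.63). CX3CR1, the fractalkine receptor, CYBB, the core of the phagocyte oxidase, and FCGR3A, an IgG receptor, had log2 fold changes of −7.65, −6.18 and −6.13. VCAN, a proteoglycan of monocytes, had 123 to 344 CPM in blood and 0.538 to 42.9 CPM in liver, with liver counts of 9 to 821. CD14, the monocyte receptor for lipopolysaccharide, did not pass the test: it had 16.5 to 56.5 CPM in blood and 26.4 to 63.1 CPM in liver (log2 fold change 0.13, SE 0.22, adjusted p = 0.61, edgeR), and was singled out after its values were seen. Of 12 genes of resident macrophages, 2 were at least 16-fold higher in liver and none in blood, a share close to the 15.2% of all genes. These were MARCO, a scavenger receptor, with 3.66 to 10.6 CPM in liver and at most 6 counts in a blood library, and TIMD4, the phosphatidylserine receptor by which macrophages take up dying cells, with 125 to 314 counts in a liver and at most 12 counts in a blood library. Of the 5 genes tested for eosinophils, basophils and mast cells, 3 were called higher in blood (IL5RA, FCER1A and MS4A2). Platelet genes had a median of 0.70, and 2 of 14 were past 16-fold, both in liver, again close to the 15.2% of all genes: GP9, at 49.2 to 73.7 CPM in liver and 0.744 to 10.3 CPM in blood, and GP1BA, at 4.12 to 13.1 CPM and 0.088 to 0.702 CPM. Both encode subunits of the platelet receptor for von Willebrand factor.

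Of the erythroid genes, 31 of 50 were called in liver and the adult beta globin in blood. Globin chains are switched in development: zeta and epsilon type chains belong to the embryo, gamma (HBG) to the fetus, and HBB to the adult. HBB was the one erythroid gene at least 16-fold higher in blood, at 176 to 8390 CPM (median 811) against 16.4 to 46.3 CPM in liver (median 26.2; log2 fold change −6.20, SE 0.88, adjusted p = 3.0e-06, edgeR). HBG, in contrast, had 3891 to 13110 CPM in liver (median 7184) and 0.836 to 34.9 CPM in blood (median 3.64). HBZ, the embryonic zeta chain, held 2335 to 53308 counts in each liver and 0 in every blood library, at least 84160-fold higher in liver. HBE1 and HBE4, epsilon type chains, reached at most 4 and 6 counts in a blood library, against 757 to 28893 and 90 to 594 in a liver. HBE2 held 1045 and 4270 counts in a pair of ET_D7 livers and at most 1 in the other 5, so its call rests on those livers. The alpha type genes HBA and HBA1 had 302 to 716 and 245 to 513 CPM in liver and 1.81 to 107 and 0.748 to 44.7 CPM in blood. The minor alpha type chains HBM and HBQ1 were 7.45 and 4.46 higher in liver on the log2 scale. Of these 10 genes, 8 were past 16-fold in liver, 1 in blood, and HBA lay just below at 3.94 (SE 0.72).

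As a share of all beta type globin counts, HBB made 99.3% to 99.6% in blood and 0.307% to 0.416% in liver, while HBG made 89.6% to 98.7% in liver and 0.371% to 0.656% in blood. The minor gene of each tissue kept a nearly constant ratio to the major one: HBB was 0.320% to 0.422% of HBG in liver and HBG was 0.373% to 0.660% of HBB in blood, although HBB itself varied by far more between dams. In the fetal heart and in the libraries labelled gonads, HBB was 0.251% to 0.433% and 0.181% to 0.433% of HBG. Near-identical globin genes can share reads, so the minor values, the split between HBA and HBA1 and the totals of these genes are uncertain. In the dam with most globin, HBB alone made 8390 CPM of the 8600 CPM of all globins. The part of shared reads was not tested. The embryonic HBE1 made 0.754% to 8.91% of beta type counts in liver, but 44.9% to 73.3% in the heart and 67.02% to 77.4% in the gonads. Likewise HBZ made 6.94% to 54.7% of alpha type counts in liver, 92.4% to 97.8% in the heart and 92.4% to 95.2% in the gonads. The HBZ shares rest on the uncertain HBA and HBA1 counts and are not measured proportions of chains.

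**Figure D4:**
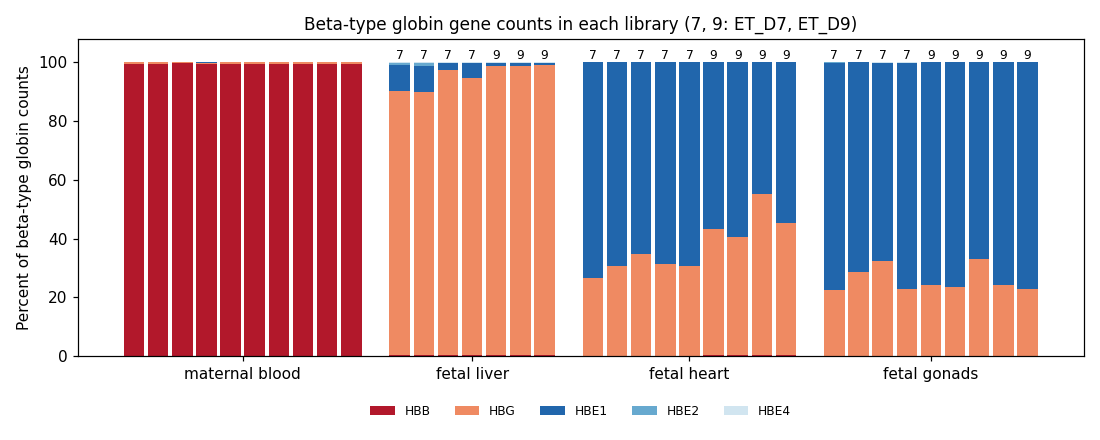
Share of each beta type globin gene (HBB, HBG, HBE1, HBE2, HBE4) among the beta type globin counts of a library, in percent, 1 bar per library for maternal blood (10), fetal liver (7), fetal heart (9) and the libraries labelled gonads (9). Digits over the fetal bars give the transfer group (7 for ET_D7, 9 for ET_D9). HBB fills the blood bars, HBG at least 89.6% of the liver bars, and HBE1 the larger part of the gonad bars and of most heart bars.

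The embryonic globin shares were compared between the transfer groups, which cannot be told apart from fetal weight. HBE1 made 2.64% to 8.91% of beta type counts in the 4 ET_D7 livers and 0.754% to 0.902% in the 3 ET_D9 livers, and the groups did not overlap. The exact two-sided permutation test of this share gave p = 0.057 (adjusted over 6 tests, 0.11), where 35 arrangements allow no less than 0.029. In edgeR's test of the counts, HBE1 and HBZ had log2 fold changes (ET_D9 minus ET_D7) of −2.81 and −2.41 (adjusted p = 0.0021 and 0.018), and each held 757 counts or more in every liver. That fit took the spread of each gene over blood and liver libraries together. Values for these genes from the liver fitted alone are not given here. In the heart, the HBE1 share was 44.9% to 59.3% in ET_D9 and 65.4% to 73.3% in ET_D7 (exact p = 0.0079, adjusted 0.048), and in the gonads it was 67.02% to 77.1% and 67.7% to 77.4% (exact p = 0.71, adjusted 0.71). A pair of ET_D9 gonad libraries lay close to each other, with an HBE1 share of 75.69% in both. Their median chi-square was 2.22 times its expectation, the lowest of the gonad pairs (median 32.8). They entered these tests and the organ comparison below as separate libraries. The HBZ share of alpha type counts was 6.94% to 11.8% in ET_D9 and 23.5% to 54.7% in ET_D7 livers, and its exact permutation tests gave p = 0.057 in liver (adjusted 0.11), 0.13 in the heart (adjusted 0.19) and 0.16 in the gonads (adjusted 0.19), none past 0.05.

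Most of the listed genes for the regulators and the machinery of red cell formation were higher in liver. KLF1, the factor that drives adult type globin and red cell membrane genes, had 709 ± 213 CPM in liver (SD, n = 7) and 2.87 ± 1.34 CPM in blood (SD, n = 10; log2 fold change 7.95, SE 0.33, adjusted p = 5.2e-14, edgeR). EPOR, the erythropoietin receptor on which red cell precursors depend, had 40.7 to 146 CPM in liver, and 1 blood library held 4 counts while the other 9 held 0. AHSP, the chaperone of free alpha globin, had 1188 ± 293 CPM in liver against 1.46 ± 0.895 CPM in blood. HEMGN, a nuclear protein of erythroid cells, was 6.69 higher on the log2 scale and GATA1 itself 4.55 higher (SE 0.34, adjusted p = 2.7e-10, edgeR), with 276 to 437 CPM in liver and 7.62 to 48.9 CPM in blood. In all, 5 of 12 regulators were past 16-fold in liver and none in blood. At the adjusted p of any size, 9 favoured liver (39.7% of all genes did) and 2 favoured blood (33.2% of all genes did). NFE2, LMO2 and BCL11A, factors that leukocytes or platelets also use and that were singled out after their values were seen, lay between −0.41 and 0.07.

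All 11 genes of haem synthesis and iron uptake passed the adjusted p in favour of liver, 6 of them past 16-fold (list median 4.09), beside 39.7% of all genes. For 9 of the 11, every liver lay above every blood library, as for 19.8% of all genes. ALAD, an early enzyme of the haem pathway, had 1046 ± 164 CPM in liver (SD, n = 7) against 11.8 ± 3.91 CPM in blood (SD, n = 10). UROD and UROS, later enzymes, and SLC25A37, the mitochondrial iron importer mitoferrin, were higher by 4.92, 4.57 and 4.82 on the log2 scale. ALAS2, the erythroid enzyme that starts the pathway, had 905 to 1398 CPM in liver and 8.05 to 217 CPM in blood (log2 fold change 4.09, SE 0.58). Of 17 red cell membrane genes, 12 were past 16-fold in liver and none in blood. KEL, the Kell blood group protein, had 748 to 1488 CPM in liver and 0 to 0.508 CPM in blood. SPTB, a spectrin chain of the red cell skeleton, had 1571 ± 355 CPM in liver (SD, n = 7) against 10.5 ± 4.35 CPM in blood (SD, n = 10). ERMAP, DMTN and ICAM4 were higher by 7.92, 7.02 and 6.85 on the log2 scale. CA1, singled out after its values were seen, was called on 8 counts in 1 liver, with no count elsewhere, and its bound of 8.62-fold is below the limit.

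The dams differed widely in red cell transcripts. HBB ranged from 176 to 8390 CPM over the 10 dams, and ALAS2, SLC4A1 (the anion exchanger band 3) and CA2 (carbonic anhydrase 2) rose with it, with 27.0, 23.3 and 15.1 times as much in the highest dam as in the lowest. Over the 10 dams, the log2 CPM of HBB correlated with that of ALAS2 (Pearson r = 0.965, permutation p = 3e-05, adjusted 6e-05, Spearman rho = 0.915, permutation p = 0.0005, adjusted 0.0008). Without the 2 dams farthest from the median, r was 0.948. For SLC4A1, r was 0.964 and rho 0.939 (permutation p = 3e-05 and 0.00019, adjusted 6e-05 and 0.00038, r = 0.949 without the 2 dams). For CA2, r was 0.953 and rho 0.952 (permutation p = 5e-05 and 0.00012, adjusted 8e-05 and 0.00032, r = 0.942 without the 2 dams). GATA1 did not follow HBB (r = 0.027, permutation p = 0.95, rho = −0.006, permutation p = 1, r = 0.088 without the 2 dams). Within the libraries above 35000000 counts and within those below, r was 0.978 and 0.984 for ALAS2, 0.980 and 0.958 for SLC4A1, and 0.961 and 0.947 for CA2. The adjustment was over 8 genes, which were chosen with their values known. The others were HBM (r = 0.985), HBA (r = 0.987), AHSP (r = 0.734) and HBQ1 (r = 0.587), and r for AHSP and HBQ1 dropped to 0.445 and 0.139 without the 2 dams.

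**Figure D5:**
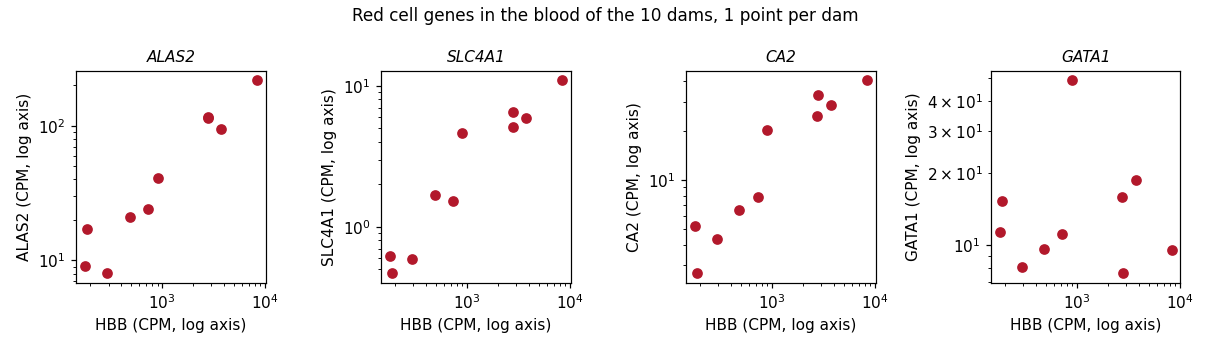
CPM of ALAS2, SLC4A1, CA2 and GATA1 (y axes) against HBB (x axes) in the blood of the 10 dams, 1 point per dam, all axes logarithmic. ALAS2, SLC4A1 and CA2 rise with HBB (r from 0.953 to 0.965), and GATA1 does not (r = 0.027).

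Plasma protein and apolipoprotein genes had the largest medians of the lists. Of 27 plasma protein genes, 24 were at least 16-fold higher in liver, with a list median of 14.74 on the log2 scale. SERPINA1, alpha-1-antitrypsin, took 13720 to 29340 CPM in liver (median 24100), and the 10 blood libraries held 6 counts in all (log2 fold change 20.13, SE 0.53, adjusted p = 2.4e-16, edgeR). AFP had 5713 to 13840 CPM in liver (median 9287; log2 fold change 19.30, SE 0.49). FETUB (fetuin B) and FGA (the fibrinogen alpha chain) held 0 counts in all 10 blood libraries and were at least 442100-fold and 187500-fold higher in liver. AHSG (fetuin A) and AMBP (the precursor of alpha-1-microglobulin) were 18.08 and 17.92 higher on the log2 scale, with 4 and 1 counts in blood in all. Albumin, ALB, had 878 to 2119 CPM in liver and 6 counts in all in blood. All 10 apolipoprotein genes tested were past 16-fold. APOB, the protein core of low density lipoprotein, APOH and APOC2 were at 0 in all blood libraries and at least 195300-fold, 56620-fold and 39160-fold higher in liver. APOA1, APOA2 and APOE were 14.76 to 16.97 higher on the log2 scale. Summed, apolipoprotein genes made 6049 to 14960 CPM in liver and 3.35 to 6.08 CPM in blood.

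Of 11 coagulation factor genes, 9 were past 16-fold in liver. F10, F9 and F7, which are made by hepatocytes, were at 0 in blood and at least 38550-fold, 5239-fold and 3678-fold higher in liver. F2 (prothrombin) had 656 to 1537 CPM in liver and 0.254 to 2.83 CPM in blood. F11 and F13B were 13.79 and 11.65 higher on the log2 scale. Among 15 hepatocyte transcription factors, 12 were past 16-fold, among them ONECUT2 (9.97), NR1H4, the bile acid receptor (9.70), and NR5A2 (9.65), FOXA3 (9.12) and ONECUT1 (at least 381-fold, at 0 in blood). NR0B2 was also at 0 in blood, but 5 of the 7 livers held at most 2 counts of it. Of 19 hepatocyte enzymes, 11 were past 16-fold. OTC and CPS1, the mitochondrial enzymes of the urea cycle, had 144 to 200 and 145 to 242 CPM in liver. OTC was at 0 in blood, at least 21920-fold higher in liver. HPD and HGD, which break down tyrosine, were 12.98 and 9.70 higher on the log2 scale. APOC3, CYP2E1, ASL and SERPIND1 were listed at 0 in all libraries of both tissues. The leukocyte genes CCR2, CCR3 and FCGR1A were too. Whether such genes were not expressed or their identifiers took no reads was not tested.

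Of the 82 hepatocyte genes, 7 passed the adjusted p in favour of blood, against 33.2% of all genes, and none reached 16-fold there. These were singled out after their values were seen. CP, ceruloplasmin, came closest, at 7.44 to 13.2 CPM in blood and 0.190 to 1.08 CPM in liver (log2 fold change −3.93, SE 0.33, adjusted p = 1.7e-09, edgeR). F5, coagulation factor V, had 200 to 348 CPM in blood and 11.2 to 23.3 CPM in liver (−3.83, SE 0.18). HP (haptoglobin), CYP27A1, CEBPA and FBP1 had log2 fold changes of −1.92, −2.62, −2.46 and −1.33. A2M, at −0.37, lay within the shift that other scalings make. Leukocytes or platelets are known to express several of these.

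Genes of other liver cells were called in part, 12 of 25 in liver. Of 9 endothelial genes, 4 were past 16-fold, among them STAB2, OIT3 and LYVE1, known from liver sinusoids, which were 8.24, 8.45 and 7.97 higher in liver on the log2 scale. KDR, the VEGF receptor, was 5.48 higher. Of 10 stellate and mesenchymal genes, 5 were past 16-fold. PDGFRB, of stellate cells and pericytes, had 80.7 to 146 CPM in liver and 0 to 0.671 CPM in blood, and COL3A1, DCN, LRAT and RGS5 were 4.08 to 5.06 higher on the log2 scale. Of 6 bile duct genes, 3 were. KRT19, a keratin, was 8.98 higher on the log2 scale, KRT7 held 0 and 1 counts in a pair of livers and 141 to 417 in the other 5, and SOX9 was at 0 in blood and in part of the livers (0 to 46 counts). Of 13 progenitor genes, 2 were past 16-fold, a share close to the 15.2% of all genes. They were CD34, which endothelium also expresses, at 211 to 436 CPM in liver against 0.061 to 2.42 CPM in blood, and MECOM (4.61). The stem cell receptor KIT, singled out after its values were seen, had 2.55 to 4.71 CPM in liver and 9.39 to 16.3 CPM in blood. Cell division genes were higher in liver in 18 of 19 cases at the adjusted p, against 39.7% of all genes, but only RRM2, a subunit of ribonucleotide reductase, was past 16-fold, and MKI67, the proliferation antigen Ki-67, was 1.12 higher (SE 0.13). Of 11 fetal growth genes, 9 were past 16-fold. The imprinted genes DLK1 (0 in blood, at least 114700-fold higher in liver), MEG3 (15.73), PEG3 (12.51), H19 (10.82) and IGF2 (9.61) led them, with IGF2BP1 (9.21).

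Among genes with a mean of at least 100 CPM, the 10 largest differences in favour of liver were those of SERPINA1, FETUB, AFP, LOC508098, APOB, FGA, AHSG, AMBP, DLK1 and HBZ, of which LOC508098 had 1190 to 2026 CPM and no blood count. In favour of blood they were those of LOC524810, IDO1, TGM3, TBX21, LOC100335205, LYZ, IGCGAMMA, LOC510988, CD2 and MS4A1. LOC524810 had 77.7 to 317 CPM in blood and 0 counts in all livers, at least 8592-fold higher in blood. IDO1, the interferon-induced enzyme that degrades tryptophan, had 228 to 374 CPM in blood and 2 counts in all 7 livers. TGM3, a transglutaminase, had 130 to 457 CPM, and IGCGAMMA, an immunoglobulin gamma constant region, 206 to 1136 CPM.

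The fetal heart and the libraries labelled gonads, made with the same kit as the liver, show which of these genes stand out in liver when the kit is shared. At an adjusted p under 0.05 and a log2 fold change above 1 against each of them, 4699 of 25684 genes (18.3%) were higher in liver. Of the erythroid genes 43 of 50 met this, of the hepatocyte genes 73 of 82, of the platelet genes 13 of 14 and of the leukocyte genes 58 of 99. Fewer met it among the progenitor genes (4 of 13), cell division genes (4 of 19), fetal growth genes (3 of 11) and genes of other liver cells (3 of 25, with 0 of 6 for bile duct, 1 of 10 for stellate and mesenchymal cells and 2 of 9 for endothelium). Within the leukocyte genes, all 14 granule protein and all 12 resident macrophage genes met it, as did 8 of 14 B cell, 7 of 11 neutrophil, 7 of 20 T cell and 3 of 13 killer cell genes. HBE1 and HBZ were not among them, with log2 fold changes of −2.04 and −0.31 against the heart.

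Between the transfer groups, 0 of 24234 genes (0%) differed in maternal blood at an adjusted p under 0.05 in edgeR's quasi-likelihood test, with 1154 at an unadjusted p under 0.05, and DESeq2 called 178. In the liver 1635 genes (6.75%) differed, and 21 of the 317 listed genes were among them, a share close to that background. DESeq2 called 2570 genes in liver, and edgeR called 302 when the liver was fitted alone. The fit that gave 1635 took the spread of each gene over blood and liver libraries together. Pairs of livers correlated at r = 0.603 to 0.950 (log2 counts, without the near-identical pair), pairs of blood libraries at 0.907 to 0.970. Of the 1635 calls, 659 were genes at or near 0 in every ET_D9 liver and 39 genes so in every ET_D7 liver, as described above, and 937 calls lay outside both sets. Leaving out each ET_D9 liver in turn gave 961, 970 and 1051 genes. Of the 21 listed genes, 15 were leukocyte genes. Among the 877 genes with at most 1 count in every ET_D9 liver and 100 or more in an ET_D7 liver, 9 were listed genes. The part of this pattern in the 15 was not tested. For CD247 and CD79A, chains of the T and B cell receptor complexes, and for GATA2, a progenitor and mast cell factor, the 3 ET_D9 livers held 1, 0 and 1 counts, and the ET_D7 livers 235 to 692, 0 to 643 and 211 to 1260. For CD28, a co-receptor of T cells, the ET_D9 livers held 8 to 48 counts and the ET_D7 livers 0 to 4. For CD5 they held 0 to 35 and 0 to 4, and the groups overlapped. Blood held 6536 to 12768 counts of CD247 and 613 to 1394 of CD28, above every liver, whereas GATA2 held 128 to 935 counts in blood and overlapped with liver.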

How the data were processed

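The authors trimmed paired-end reads with Trimmomatic, aligned them with STAR 2.7.0b to ARS-UCD1.3 and deposited whole-number counts per gene from featureCounts (Subread 2.0.3). Counting options for strand, pairs and multi-mapping reads are not given in the sources used here. Of the counts of 1 to 20, 83.8% to 87.9% were even in blood and 47.2% to 76.6% in liver. Precision rests on 18231089 to 40812354 counts per library and on the number of libraries. The bounds take each count as a separate observation and cover counting error only. The high share of even counts was not allowed for, so the bounds may be too high.

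Groups came from the tissue labels. Livers of low RNA integrity had been left out by the authors. The near-identical ET_D7 livers entered as their rounded mean, which departs from the planned 8 livers. Counts (genes with at least 1 count in any library) were TMM-scaled and fitted with edgeR 4.0.16, without a block on animal number. Transfer groups were tested in a fit of tissue by group, with the spread of each gene taken over both tissues. Organs were tested in a fit of all 4 tissues. Limits were an adjusted p of 0.05 and 16-fold. Ranks were percentiles of the count within a library. Exact tests permuted libraries, correlations were on log2 (CPM + 0.5) with 100000 permutations, and the smallest p these can give is 1e-05. A test on simulated counts recovered the changes seeded in well-counted genes. It gave every gene the same spread and held no kit shift or uneven livers.

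Members and gene lists were chosen with earlier results of these data known. Named genes were the 4 markers, up to 6 called members of a list by size of the fold change (or the best counted where fewer than 2 were called), all globins and the 10 largest differences in each direction at a mean of 100 CPM or more. Names came from RefSeq's gene table (31630 of 35092 identifiers matched). Each library is labelled with 1 animal, and the near-identical ET_D7 livers count as 1 unit. P-values measure the spread between these units. Alternatives were DESeq2 1.42.0, other scalings and filters, the block, and leaving out genes or libraries. Some genes that this rule names are not reported here.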

Additional observations from a re-analysis of the deposited data

Results flagged for a closer look

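Among 72 sets of values checked for a library apart from the rest of its tissue (the 4 markers, XIST, the globins and the list sums), 13 held such a library. Chance alone was taken to give about 1 in 20 of independent sets. These sets share genes (HBB is also part of the summed globins), so the 13 were not tested against chance. In blood, 1 ET_D7 dam stood apart for HBB (8390 CPM, next 3733), HBM (18.8 CPM, next 6.87) and the summed globins (8600 CPM, next 3857). An ET_D9 dam had 48.9 CPM of GATA1 (next 18.8), and an ET_D7 dam had 72.3 CPM of S100A8 (next 47.9). The summed bile duct genes reached 8.42 CPM in an ET_D9 dam (next 2.99) and the summed fetal growth genes 46.2 CPM in an ET_D7 dam (next 26.7).

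In liver, 1 ET_D9 fetus stood apart for HBA (716 CPM, next 444.3), HBA1 (513 CPM, next 345) and HBE4 (35.5 CPM, next 16.9), and 1 ET_D7 fetus for HBE2 (128 CPM, next 54.6) and the summed eosinophil, basophil and mast cell genes (17.8 CPM, next 5.23). The summed T cell genes were highest in the merged pair of ET_D7 livers (106 CPM, next 83.6).

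The difference between ET_D9 and ET_D7 differed between liver and blood for 14 listed genes (edgeR interaction, adjusted p under 0.05, 3.21% of all genes passed) in the fit without the replicate block. With the block on animal number over 8 pairs, 4 of the 14 passed (CD247, GATA2, CX3CR1 and VCAN), and over 6 pairs 3 did (CD247, GATA2 and VCAN). On the log2 scale (liver minus blood) it was 3.83 for CD5, 3.89 for CD28, 3.53 for CD3G, 7.68 for CXCR1 and 6.70 for FCER1A, and −9.66 for CD247, −8.30 for CD79A, −9.13 for GATA2, −7.63 for PAX5, −3.34 for MPO, −3.22 for VCAN, −2.40 for CX3CR1, −1.18 for BLK and −1.15 for NCF1. For CD247, CD79A and GATA2 every ET_D9 liver held at most 1 count. CD247, CD79A and GATA2 carried the counts 1, 0 and 1 that 652 genes share in these livers, and the part of that in these values was not tested.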

How the results depend on the processing

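The block and pairing: deviations of dam and fetus from their tissue means did not correlate (−0.023 to 0.012 over 6 pairs, 0 of 6 above 0.1). By this measure, 0 dams correlated best with their own fetus. Tissue, kit and generation differ within a pair, so these values cannot show whether the numbers pair the libraries. With the replicate block over 8 pairs, 1965 genes were at least 16-fold higher in blood and 2900 in liver, 1 hepatocyte gene was called in blood, and the transfer difference between tissues fell from 779 to 208 genes. Over the 6 pairs without the near-identical livers, a setting added after seeing the data, there were 1785, 2859 and 205 genes, and 0 hepatocyte genes in blood. The block changed no other call by over 1.5 times, and SOX9 lost its call over 6 pairs (6.37, adjusted p = 0.053).

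Limits of 4-fold and 64-fold gave 4595 and 773 genes in blood and 6899 and 1627 in liver, and glmTreat against 16-fold gave 1174 and 1887. Requiring 10 counts in 8 libraries, which genes counted only in the 7 livers cannot meet, left 1456 genes, 3 leukocyte and 27 hepatocyte genes in liver, and 1043 rank calls in blood. Rank gaps of 20 and 60 points gave 2786 and 135 genes in blood and 2562 and 224 in liver. Without the globins, 0 erythroid genes were called in blood. Hepatocyte calls in blood were 2 by library totals and 1 with blood libraries above 35000000 counts only, ET_D7 only or ET_D9 only. A log2 limit of 4 against heart and gonads left 1508 genes. For CATHL6, HBE2 and NR0B2 the ET_D9 libraries alone gave 3.23, 0.33 and 3.23, not past the test.

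The transfer comparisons moved most: DESeq2 called 178 genes in blood, 2570 in liver and 1841 for the difference. Blood libraries above or below 35000000 counts alone left 9 and 1 in blood, 766 and 754 in liver and 222 and 234 for the difference. The liver fitted alone gave 302. Apart from these constructions, the cause was not tested.

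Leaving out each library in turn gave 1828 to 2010 genes in blood and 3555 to 3900 in liver, leukocyte calls of 52 to 56 and 11 to 11, erythroid calls of 1 to 1 and 30 to 32, hepatocyte calls of 0 to 1 and 66 to 66, rank calls of 696 to 722 and 754 to 801, organ calls of 4662 to 4901 (erythroid 43 to 44, hepatocyte 72 to 73), and transfer calls of 0 to 9 in blood, 961 to 1827 in liver (1824 without the only ET_D7 liver at 0 for CD79A) and 471 to 1058 for the difference. The difference was 471 and 477 genes without 1 or another ET_D9 liver, and blood reached 9 without 1 ET_D7 dam. For single named genes, 4431 of the repeated values kept direction and call and 4 lost the call.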

Other observations

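The ET_D9 dam that was highest for GATA1 was also the highest of the 10 dams for IL5RA, the interleukin-5 receptor of eosinophils (128 CPM, the other dams 23.5 to 57.1 CPM), for MPO (65.8 CPM, others 5.14 to 29.9 CPM) and for PADI4, which citrullinates histones (379 CPM, others 64.1 to 191 CPM). It was the lowest for MS4A2, the IgE receptor subunit of basophils and mast cells (4.43 CPM), and for GATA2 (4.29 CPM). These genes were compared after their values were seen.

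Transcripts of connective tissue and muscle appeared in single blood libraries. COL1A1 had 284 and 267 CPM in 1 ET_D9 and 1 ET_D7 dam and 0.483 to 22.6 CPM in the other 8, and COL1A2 had 170 and 161 CPM there and 0.484 to 18.3 CPM elsewhere. DES, desmin of muscle, had 253 and 113 CPM in a pair of ET_D7 dams and at most 1.49 CPM in the other 8.

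Other gene groups differed between the kits and tissues together. Histone genes (48 tested) had a median log2 fold change of 3.6 and took 0.0801% to 0.168% of the counts in liver and 0.0602% to 0.0907% in blood. Cytosolic ribosomal protein genes (79 tested) had a median of 1.14. Of the RNAs listed as lacking a poly(A) tail, RN7SL1 and TERC were 4.18 and 4.57 higher in liver on the log2 scale. RMRP was also tested and passed the adjusted p in favour of liver, below 16-fold. All were low: the 3 genes together made 0.201 to 0.902 CPM in blood and 3.35 to 13.3 CPM in liver.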
